A study of Rattus norvegicus with 18 samples.

Results

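A set of 10 genes of the G1 cell cycle switch was followed in the neural retina and the RPE/choroid of wild-type Fischer344 rats: the D cyclins Ccnd1, Ccnd2 and Ccnd3, their kinases Cdk4 and Cdk6, and the CDK inhibitors Cdkn1a, Cdkn1b, Cdkn2a, Cdkn2b and Cdkn2c. The members were chosen by name, and all 10 were found among the 32285 genes of the retina table and the 32552 genes of the RPE/choroid table. The study names Ccnd2 and Cdkn2b from its comparison of aged with young RPE/choroid, so the values of that comparison are given here as a description and without a test. The other members belong to the same families, and the list was drawn up with earlier results of these data known. "Senescence-linked" is the role these inhibitors have in general, and no senescent cell was counted in these tissues.

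Cyclin D binds CDK4 or CDK6, and the active pair phosphorylates the retinoblastoma protein, which then releases E2F factors and lets a cell enter S phase. Inhibitors of the INK4 type (p16INK4a from Cdkn2a, p15INK4b from Cdkn2b and p18INK4c from Cdkn2c) block CDK4 and CDK6 directly, while p21 from Cdkn1a and p27 from Cdkn1b act on a wider set of cyclin-kinase pairs. Cdkn1a is a classic target of p53, and p16INK4a and p21 are widely used marks of senescent cells. The neurons of the adult retina have left the cell cycle, Müller glia can re-enter it after injury, and the D cyclins are also present in cells that do not divide.

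Each tissue had 3 libraries from young rats, 4 months old by the labels although figure legends of the study give another age, 3 from aged rats of 24 months and 3 from aged rats of 24 months that had taken 8-aminoguanine (8-AG), an endogenous purine that inhibits purine nucleoside phosphorylase, at 5 mg/kg/day in their drinking water for 8 weeks from 22 months of age. Only female rats were used, with no transgene or deletion in any group, and the untreated aged rats drank water. The tissues were sequenced separately, and the total was 12283458 to 15644346 counts per retina library and 28573828 to 48203050 per RPE/choroid library. Total RNA is the label of the 3 retina libraries of 8-AG-treated rats, and polyA RNA that of the other 15, so that in retina this label and the treatment cannot be told apart. In the RPE/choroid, young libraries 1 and 2 share a number in their names with a different side letter, and so do aged libraries 1 and 2. They may come from both eyes of the same rat, which the labels do not say. No p-value below measures more than the spread between these libraries.

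Levels are CPM, the reads of a gene per 1000000 reads of its library, after TMM scaling within a tissue. CPM do not correct for transcript length, so levels are compared between groups for the same gene and not between genes. A log2 fold change comes from edgeR's quasi-likelihood fit to the 6 libraries of a comparison, and a gene was called where its p-value, adjusted by Benjamini-Hochberg over all genes tested, was below 0.05. A second rule, that of the study, takes genes that changed over 1.5-fold with an unadjusted p below 0.05.

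The retina libraries carried their defining markers, with 10 rod genes summing to between 32969 and 57234 CPM. The sum was 52446 to 57234 CPM in young, 32969 to 37464 in aged and 33746 to 44506 in 8-AG-treated retina, whereas 10 Müller glia genes stayed between 5955 and 6613 CPM in every library. The 9 microglia and macrophage genes summed to 33.0 to 35.3 CPM in young, 99.6 to 168 in aged and 109 to 115 in 8-AG-treated retina. Crystallins and other genes of the lens reached 3230 CPM in young library 1, 7087 CPM in young library 2 and 2088 CPM in 8-AG library 1, while young library 3 had 179 CPM and the 5 remaining libraries had 54.5 to 61.8 CPM. In the RPE/choroid the 10 RPE genes summed to 1745 to 5166 CPM against 444 to 770 CPM in retina, but rod genes were also present at 562 to 51770 CPM. The 8-AG library 1 of the RPE/choroid stood apart, with 51770 CPM of rod genes, 31888 CPM of striated muscle genes and only 657 CPM of endothelial genes. In these bulk samples, fewer cells of a type and less RNA per cell cannot be told apart.

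**Figure D1:**
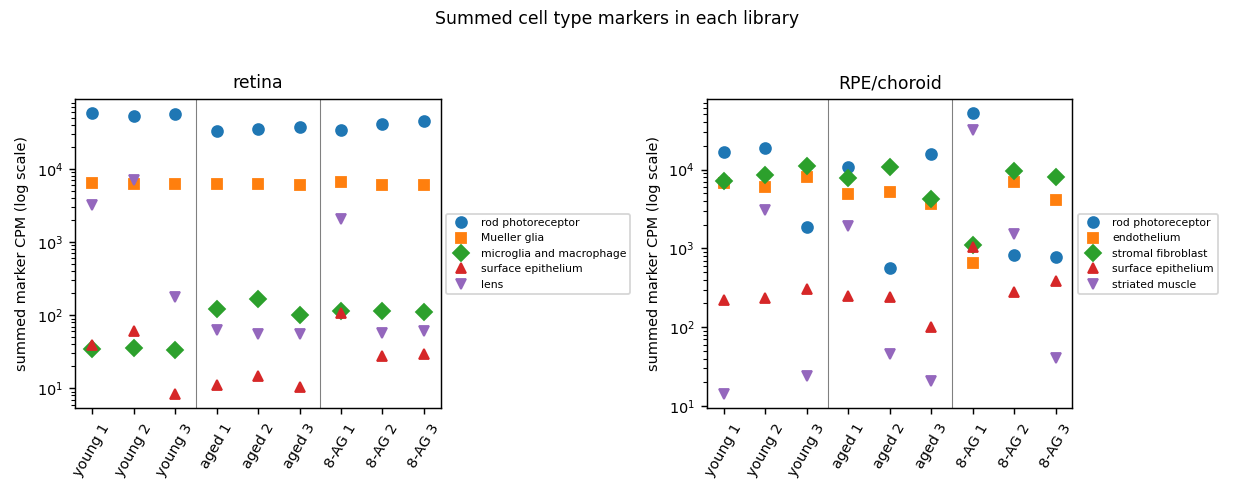
Summed CPM of marker genes on a log axis for each of the 9 retina libraries (left) and the 9 RPE/choroid libraries (right), 1 symbol per cell type and grey lines between the groups. Microglia and macrophage genes are at 33.0 to 35.3 CPM in young retina and at 99.6 CPM or more in all other retina libraries. Lens genes in retina are high in young libraries 1 and 2 and in 8-AG library 1. Among the 9 RPE/choroid libraries, the first 8-AG library has the highest rod and muscle sums.

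In aged retina, 2 of the D cyclins were higher and Cdkn1a was lower than in young retina. Ccnd2 rose 3.79-fold, Ccnd1 rose 1.64-fold, and Cdkn1a fell by 0.65 on the log2 scale. Of the 10 members 8 passed the filter on low counts, and these 3 were called, against 14.5% of the 14588 genes tested. The background for the 2 higher members was 7.29% of genes and that for the 1 lower member 7.26%. The count was 1 when any single young library, or libraries 1 and 2 together, was left out, and 2 without aged library 1, with no filter or in one fit of all groups. The same 3 passed the study's rule, which 8.84% of genes passed, though only 2 did without aged library 2, without aged library 3 or in one fit of all groups. They were also the members whose groups did not overlap, which held for 35.3% of genes. The direction is therefore split among the members, with 2 higher and 1 lower. Since the members were chosen with earlier results of these data known, nothing can be read from their count against these shares.

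Ccnd2 (ENSRNOG00000057710) encodes cyclin D2. It stood at 15.9, 16.5 and 15.2 CPM in the young libraries, at 55.0, 68.0 and 57.2 CPM in the aged ones and at 48.8, 50.2 and 42.9 CPM in those of 8-AG-treated rats. Every aged library was above every young one, and the 3 treated libraries lay below the 3 aged ones and well above the young. Young retina had a mean of 15.8 ± 0.640 CPM and aged retina one of 60.1 ± 6.93 CPM (SD, n = 3 each), a log2 fold change of 1.92 with an SE of 0.10 (edgeR, adjusted p = 1.24e-05). The call was kept when any of the 6 libraries was left out, with values from 1.83 to 1.98. It was also kept without young libraries 1 and 2, those with most lens RNA, at 1.99 (edgeR, adjusted p = 0.00155). The sum of microglia and macrophage genes moved in the same direction as Ccnd2 and that of rod genes in the other. Of 6 erythroid genes 4 were found and summed to 29.5 to 50.8 CPM in young and 92.5 to 469 CPM in aged retina, with 469 CPM in aged library 2, the highest for Ccnd2. Of 5 neutrophil genes 4 were found, at 0.338 to 1.08 and 1.24 to 4.59 CPM, with 2 of them at 0 in all young libraries. The part of these cells in the change was not tested.

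Ccnd1 (ENSRNOG00000020918) encodes cyclin D1. Its level was 17.6, 17.3 and 14.2 CPM in young, 23.9, 34.5 and 22.1 CPM in aged, and 51.9, 24.0 and 20.04 CPM in 8-AG-treated retina. The aged libraries were all above the young, with aged library 2 the highest of them, while treated library 1 exceeded all others. Young rats had a mean of 16.4 ± 1.84 CPM and aged rats one of 26.8 ± 6.73 CPM (SD, n = 3 each), a log2 fold change of 0.72 with an SE of 0.18 (edgeR, adjusted p = 0.0359). This call was lost without young library 1, 2 or 3 or aged library 1, where the adjusted p from edgeR was 0.0901, 0.0979, 0.104 and 0.0521. It was also lost with no filter (adjusted p = 0.065), in one fit of all groups (0.291) and without young libraries 1 and 2 together (0.166), all by edgeR. The value stayed between 0.49 and 0.84 in the 6 fits that left out 1 library, and 0.49 was that without aged library 2. Without young libraries 1 and 2 together it was 0.92. The sum of microglia and macrophage genes was also higher in aged retina and highest in aged library 2, at 168 CPM, as was that of erythroid genes, while that of rod genes was lower, and their part in the Ccnd1 change was not tested.

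Cdkn1a (ENSRNOG00000000521) encodes p21, which p53 induces after DNA damage. It was at 15.7, 16.4 and 15.5 CPM in the young libraries, 10.8, 12.0 and 7.39 CPM in the aged, and 14.2, 17.4 and 10.8 CPM in the 8-AG-treated. The aged libraries were all below the young, and the treated libraries lay at, between and above the levels of these groups, treated library 3 within the aged range and treated library 2 above every young library. Its mean was 15.9 ± 0.484 CPM in young retina and only 10.1 ± 2.42 CPM in that of aged rats (SD, n = 3 each), with a log2 fold change of -0.65 and an SE of 0.16 (edgeR, adjusted p = 0.0253). Leaving out young library 1, 2 or 3 brought the adjusted p from edgeR to 0.0793, 0.0901 and 0.0557, and leaving out libraries 1 and 2 together to 0.25 at a value of -0.61, while the value stayed between -0.80 and -0.47 in all fits that left out 1 library. The rod sum moved in the same direction as Cdkn1a. So did the lens sum, at 179 to 7087 CPM in young and 54.5 to 61.8 CPM in aged retina, with 179 CPM in young library 3. The part of these cells in the change was not tested.

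The promoter of Cdkn1a is shown because this gene was the inhibitor that changed in retina. The sequence is the 250 bases before a RefSeq start in the GRCr8 build (chr20:7150682-7150931, plus strand). Capitals mark a match to the p53 half-site, whose first base lies 201 bases before that start.
Cdkn1a: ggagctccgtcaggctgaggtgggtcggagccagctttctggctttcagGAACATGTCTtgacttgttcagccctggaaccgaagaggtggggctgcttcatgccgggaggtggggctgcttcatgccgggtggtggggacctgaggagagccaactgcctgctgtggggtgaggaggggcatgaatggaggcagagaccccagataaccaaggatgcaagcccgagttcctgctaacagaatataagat
A match to the p53 half-site on either strand was found in 6.64% of the 33469 promoters of this length. Cdkn2c, whose retinal level did not pass the test, also held 1, with its first base 11 bases before the start. The start used for Cdkn1a lies inside its annotated gene, which begins at base 7150820. That window held no match to the E-box (CACGTG), the CRE (TGACGTCA) or the GC box (GGGCGG), and no other window of Cdkn1a was searched. Of the members, 7 had a promoter in the table, and Ccnd1, Ccnd2 and Cdk6 had none. A match describes the letters and does not show a bound site.

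The remaining members of the retina did not pass the test between aged and young. Ccnd3, the third D cyclin, ranged from 26.7 to 31.5 CPM in young retina and from 27.8 to 28.9 CPM with age, with a log2 fold change of -0.01 and an SE of 0.09. Cdk4, a kinase partner of all D cyclins, ranged from 21.1 to 25.6 CPM in the young group and from 24.7 to 28.1 CPM in the aged, and its log2 fold change was 0.17 with an SE of 0.10 (edgeR, adjusted p = 0.298). For Cdk6, the other partner, the ranges were 2.77 to 3.84 and 2.42 to 3.82 CPM, with a log2 fold change of -0.11 and an SE of 0.24. In all of these genes the groups overlapped.

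Cdkn1b, whose product p27 holds cells out of the cycle, ranged from 98.6 to 112 CPM in young and from 101 to 120 CPM in aged retina, with a log2 fold change of 0.08 and an SE of 0.08. Cdkn2c ranged from 3.70 to 4.59 CPM in young and from 2.83 to 4.91 CPM in aged retina, with a log2 fold change of -0.06 and an SE of 0.23. These intervals are narrow for Cdkn1b, Ccnd3 and Cdk4 and wider for the genes with fewer reads.

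Cdkn2a and Cdkn2b were close to the limit of detection in retina and were not tested. Cdkn2a had 1, 2 and 0 reads in the young libraries, 1, 1 and 0 in the aged and 2, 3 and 2 in the treated ones. All of these are at or under a floor of 3 reads per library, which corresponds to 0.191 to 0.244 CPM, and no difference was detectable at this depth. Cdkn2b had 1, 2 and 5 reads in young, 5, 13 and 4 in aged and 19, 3 and 9 in 8-AG-treated retina, so that its highest library was treated library 1 at 1.47 CPM and the groups overlapped. That library also held 2088 CPM of lens genes and 106 CPM of surface epithelium genes, against 27.7 and 29.9 CPM of the latter in the other treated libraries, and their part in its Cdkn2b and Ccnd1 levels was not tested.

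**Figure D2:**
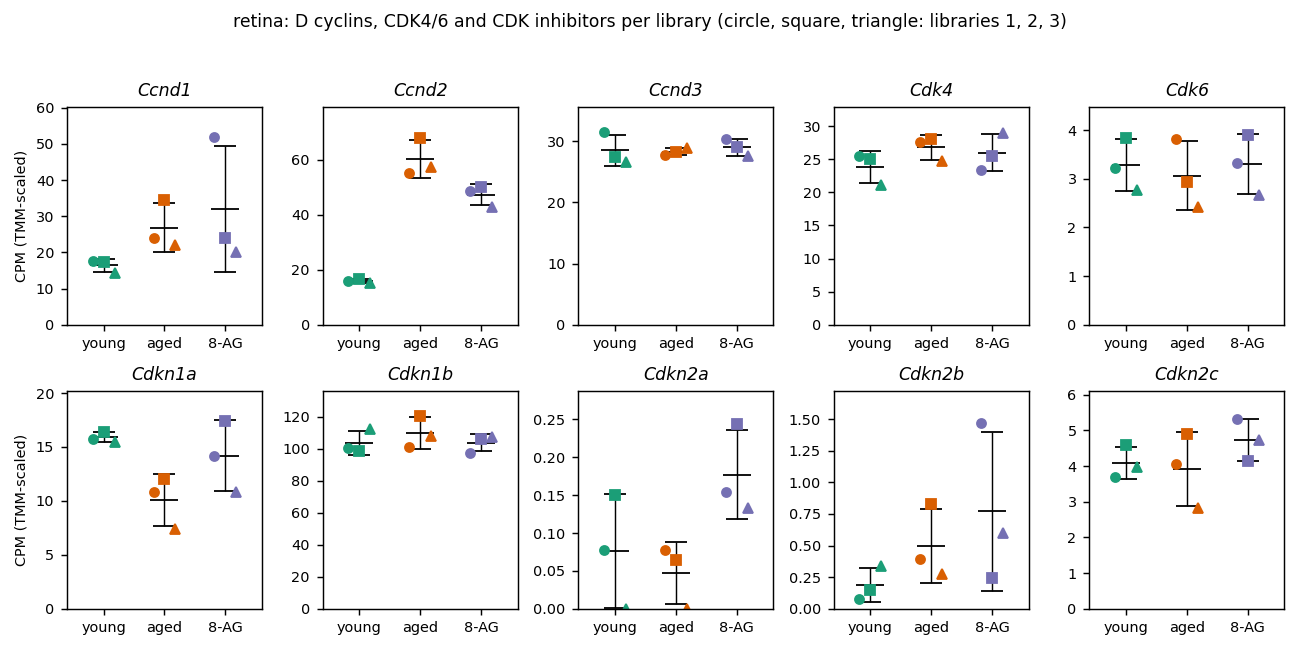
Level of each of the 10 genes in the 9 retina libraries, in CPM on a linear axis from 0, with 1 symbol per library and the mean ± SD of 3 libraries in black. Ccnd2 is at 15.2 to 16.5 CPM in young and at 55.0 to 68.0 CPM in aged retina, Cdkn1a is at 15.5 to 16.4 and 7.39 to 12.0 CPM, and Cdkn2a does not exceed 3 reads in any library.

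With 8-AG no member was called in retina, where edgeR called 0.0205% of the 14631 genes tested. The study's rule held for 0.957% of genes and for no member. An unadjusted p below 0.05 was found for 537 genes (3.67%) and for 1 member, and DESeq2 called 18 genes and none of the members. That member was Ccnd2, at a mean of 47.3 ± 3.87 CPM in treated and 60.1 ± 6.93 CPM in aged retina (SD, n = 3 each). Its log2 fold change was -0.35 with an SE of 0.10, which is 1.28-fold lower (edgeR, unadjusted p = 0.00644 and adjusted p = 0.996). The 3 treated libraries were all below the 3 aged ones, and 8.78% of all genes had groups that did not overlap, 3.96% in this direction. Marker sums that also separated these groups were those of surface epithelium, at 27.7 to 106 CPM in treated and 10.5 to 14.7 CPM in aged retina, and of 6 mast cell genes, at 23.9 to 27.3 and 28.9 to 36.1 CPM, with 4 of the 6 at 0 in all treated and 4 in all aged libraries. Their part in the Ccnd2 difference was not tested. The difference did not pass the correction, and its size remained between -0.41 and -0.25 when 1 library was left out.

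For Cdkn1a the treated mean was 14.2 ± 3.31 CPM against 10.1 ± 2.42 CPM in aged retina (SD, n = 3 each). The log2 fold change was 0.48 with an SE of 0.22 and did not pass the test (edgeR, unadjusted p = 0.0598 and adjusted p = 0.996), and the lowest treated library lay within the aged range. When 1 library was left out, the value ranged from 0.30 to 0.65. Ccnd1 had a log2 fold change of 0.24 with an SE of 0.42, and -0.29 without treated library 1. The other 5 members tested had log2 fold changes between -0.09 and 0.26, that of Cdkn2c being the highest at 0.26 with an SE of 0.23. The comparisons of aged with young and of 8-AG with aged share the 3 aged libraries, so that their values for a gene are not independent. Ccnd2 was 1.92 in the former and -0.35 in the latter, Cdkn1a -0.65 and 0.48, and Ccnd1 0.72 and 0.24.

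**Figure D3:**
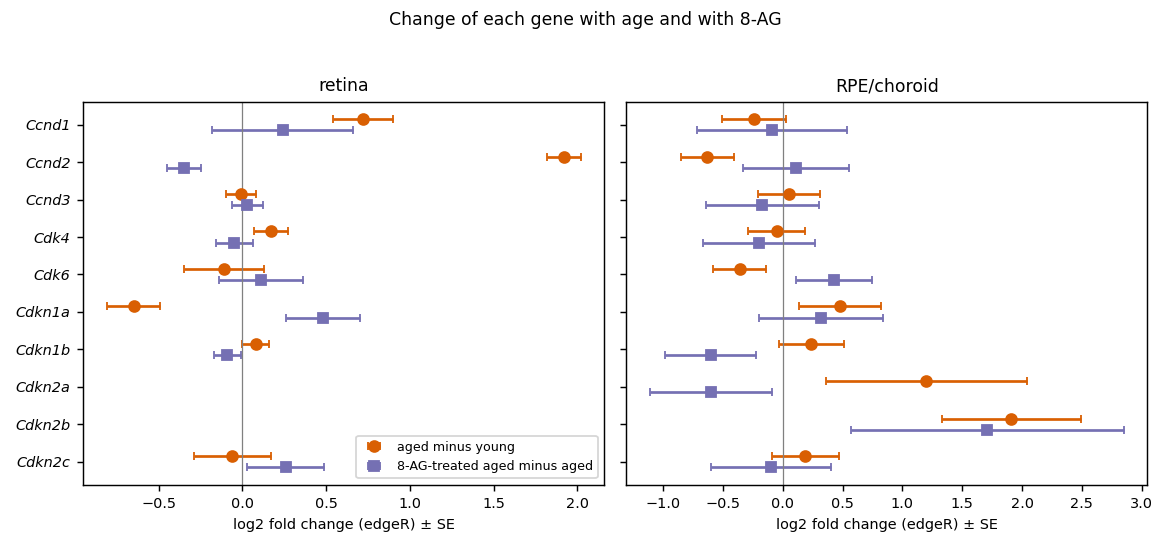
Log2 fold change with its SE for each gene in retina (left) and RPE/choroid (right), with aged minus young as circles and 8-AG-treated aged minus aged as squares, each from 3 against 3 libraries and with a grey line at 0. In retina Ccnd2 stands at 1.92 for age and -0.35 for 8-AG, and in RPE/choroid the SE of Cdkn2b for 8-AG is 1.14. Cdkn2a and Cdkn2b were not tested in retina.

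In the RPE/choroid, Cdkn2b was higher and Ccnd2 lower in aged than in young rats. These are the genes that the study names from this comparison, and their values here are a description. Of the 10 members, all of which passed the filter, these 2 met the study's rule, as did 1.35% of the 16047 genes tested, 0.717% higher and 0.636% lower. Since the members were chosen with this rule and comparison known, nothing can be read from their count against these shares. The count was 0 without young library 2 or 3 and in one fit of all groups, 1 without aged library 1, 2 or 3, with the replicate block or with libraries sharing a label number summed, and 3 without young library 1. None had an adjusted p below 0.05, nor did any other gene (0.0%), while 341 genes (2.13%) had an unadjusted p below 0.05 and DESeq2 called 29 genes and no member. Cdkn2b was the member whose groups did not overlap, which was so for 7.1% of genes, and for 2.97% in the same direction.

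Cdkn2b (ENSRNOG00000006735) encodes p15INK4b, which TGF-beta signalling is known to induce in epithelial cells. It had 14, 9 and 11 reads in the young, 24, 26 and 60 in the aged and 304, 29 and 46 in the 8-AG-treated libraries of the RPE/choroid. In CPM this was 0.467, 0.243 and 0.230 in young, 0.774, 0.766 and 2.02 in aged, and 9.44, 0.805 and 1.003 in treated rats. All aged libraries were above all young ones, aged library 3 lay above the other two, and the first treated library was far above every other library. The log2 fold change of aged over young was 1.91 with an SE of 0.58, or 3.76-fold, and it ranged from 1.31 without aged library 3 to 2.29 without young library 1. With the rod marker level as a covariate it was 2.04, and with libraries sharing a label number summed 2.23 with an SE of 0.70. The 4 neutrophil genes found summed to 8.49 to 14.9 CPM in young and 16.1 to 29.2 CPM in aged RPE/choroid, and the 4 erythroid genes to 299 to 4124 and 198 to 284 CPM. Aged library 3 also had 10464 CPM of Müller glia genes against 5788 and 4413 CPM in aged libraries 1 and 2, and 6009 CPM of melanocyte genes against 14032 and 15693 CPM. Their part in the Cdkn2b level was not tested.

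Ccnd2 in the RPE/choroid was at 146, 183 and 229 CPM in young, 113, 101 and 148 CPM in aged, and 56.0, 175 and 158 CPM in 8-AG-treated rats. Aged library 3 was just above young library 1, so that the groups overlapped. Means were 186 ± 41.8 CPM for the young and 121 ± 24.2 CPM for the aged group (SD, n = 3 libraries each, which may come from fewer rats), a log2 fold change of -0.63 with an SE of 0.22 and a range of -0.79 to -0.46 when 1 library was left out. With libraries sharing a label number summed it was -0.66 with an SE of 0.28. Endothelial genes summed to 5937 to 7982 CPM in young and 3620 to 5235 CPM in aged libraries, and their part in the lower Ccnd2 was not tested. The sign is opposite to that in retina, where the value was 1.92. The tissues were prepared and scaled separately, and the difference between them was not tested.

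Cdkn2a (ENSRNOG00000059837) gives p16INK4a and, from another first exon and reading frame, ARF, a protein that protects p53. Gene counts do not separate these products. It had 17, 4 and 3 reads in young, 20, 17 and 15 in aged and 8, 9 and 26 in treated RPE/choroid. Young library 1, at 0.567 CPM, lay among the aged libraries at 0.501 to 0.645 CPM, while young libraries 2 and 3 were at 0.108 and 0.0627 CPM. The log2 fold change was 1.2 with an SE of 0.84, and it was 2.65 without young library 1, so that this library decides the value.

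The promoters of Cdkn2a and Cdkn2b are shown together because these inhibitors are neighbours on rat chromosome 5 and both were scarce in retina. Each is the 250 bases before a RefSeq start in the GRCr8 build on the minus strand, at chr5:109107957-109108206 for Cdkn2a, a start inside the annotated gene, and at chr5:109134856-109135105 for Cdkn2b. The window of Cdkn2b, like that of Cdkn1a above, also overlaps the outer end of its annotated gene. Capitals mark matches to the CRE (TGACGTCA) and to the GC box (GGGCGG) on either strand, which do not overlap here.
Cdkn2a: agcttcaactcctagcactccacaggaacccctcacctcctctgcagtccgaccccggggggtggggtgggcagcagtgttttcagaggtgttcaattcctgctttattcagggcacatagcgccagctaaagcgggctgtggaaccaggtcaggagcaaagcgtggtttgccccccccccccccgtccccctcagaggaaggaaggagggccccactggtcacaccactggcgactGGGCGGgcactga
Cdkn2b: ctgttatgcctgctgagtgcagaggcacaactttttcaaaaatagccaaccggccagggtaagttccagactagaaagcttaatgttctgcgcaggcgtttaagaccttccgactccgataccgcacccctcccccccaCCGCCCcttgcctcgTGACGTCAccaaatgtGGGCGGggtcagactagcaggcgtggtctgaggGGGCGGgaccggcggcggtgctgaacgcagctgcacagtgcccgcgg
Cdkn2b held 1 CRE, 96 bases before the start, and 3 GC boxes, while Cdkn2a held 1 GC box. A CRE was present in 1.59% and a GC box in 30.5% of the 33469 promoters. Cdk4 held 3 E-boxes (CACGTG), which 5.59% of promoters hold at least 1 of.

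The other 7 members in the RPE/choroid had log2 fold changes of aged over young between -0.36 and 0.48, and their groups overlapped. Cdk6 was at 12.2, 10.8 and 10.1 CPM in young and 6.64, 9.07 and 10.2 CPM in aged libraries, a log2 fold change of -0.36 with an SE of 0.22. Cdkn1a was at 3.53, 3.05 and 2.13 CPM in young and 3.26, 5.45 and 3.51 CPM in aged libraries, with 0.48 and an SE of 0.34. Ccnd1 was at 202 to 364 CPM in young and 184 to 261 CPM in aged libraries, a log2 fold change of -0.24 with an SE of 0.27. For Ccnd3, Cdk4, Cdkn1b and Cdkn2c it lay between -0.05 and 0.24, with SEs of 0.24 to 0.28, so that changes of this size could not be resolved.

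**Figure D4:**
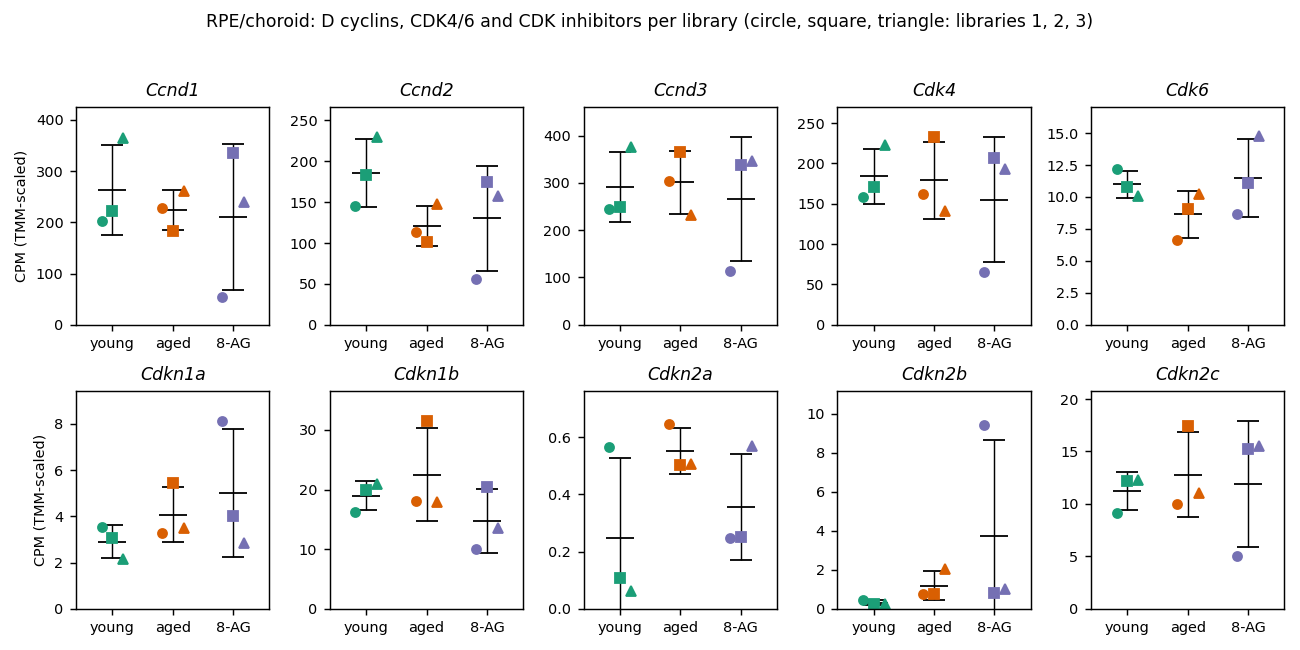
Level of each of the 10 genes in the 9 RPE/choroid libraries, in CPM on a linear axis from 0, with 1 symbol per library and the mean ± SD of 3 libraries in black. Cdkn2b is at 0.230 to 0.467 CPM in young, 0.766 to 2.02 CPM in aged and 9.44 CPM in the first 8-AG library, in which Ccnd1, Ccnd2, Ccnd3 and Cdk4 are at their lowest. SD bars that reach below 0 are drawn to 0.

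No member was called between 8-AG-treated and aged RPE/choroid, where edgeR called 0.0% of the 16257 genes tested and the study's rule held for 1.65%. An unadjusted p below 0.05 was found for 274 genes (1.69%) and no member, and DESeq2 called 81 genes and no member. No member had groups that did not overlap, which was so for 3.96% of genes. Treated library 1 lay apart for several members, with 54.1 CPM of Ccnd1 against 336 and 239 CPM in the other treated libraries, 114 CPM of Ccnd3 against 338 and 346 CPM, and 65.4 CPM of Cdk4 against 206 and 193 CPM. The same library had the highest Cdkn2b at 9.44 CPM and the highest Cdkn1a at 8.11 CPM. It also held 1055 CPM of surface epithelium genes against 101 to 386 CPM in the others, a sum that was 278 CPM or more in all treated and at most 247 CPM in all aged libraries, while lens genes were at 211 to 1026 CPM in treated and 168 to 191 CPM in aged libraries, and the part of these other tissues in its levels was not tested.

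The log2 fold change of Cdkn2b with 8-AG was 1.71 with an SE of 1.14, and -0.39 without treated library 1 (SE 0.63). For Ccnd2 it was 0.11 with an SE of 0.44, and 0.46 without that library (SE 0.21). Cdkn1b, at 10.03, 20.5 and 13.5 CPM in treated and 18.1, 31.5 and 17.9 CPM in aged libraries, had a log2 fold change of -0.60 with an SE of 0.38 (edgeR, adjusted p = 1.0). It ranged from -0.92 to -0.27 when 1 library was left out. Cdkn2a had -0.60 with an SE of 0.51, and Cdk6 had 0.43 with an SE of 0.32, and without treated library 1 these 3 genes were at -0.40, -0.42 and 0.58. The other 5 lay between -0.20 and 0.32. Without treated library 1, Ccnd1 was at 0.36, Ccnd3 at 0.18, Cdk4 at 0.16, Cdkn1a at -0.25 and Cdkn2c at 0.26, each with the opposite sign.

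The genes that act beside the members were taken from lists of the pathway. In aged against young retina, the median log2 fold change over all genes tested was 0.0, and 14.5% of them were called, 7.29% higher and 7.26% lower, the background against which the counts of each list stand. The list of the Rb family, which CDK4 and CDK6 phosphorylate, and its E2F and DP partners had 10 of 13 genes tested, with 0 higher and 2 lower and a median of -0.13. These were Rb1, at 51.3 ± 1.78 against 59.5 ± 2.03 CPM (log2 fold change -0.21, edgeR, adjusted p = 0.0497), and its relative Rbl2 (-0.19). The list of later cyclins and their kinases also held Cdc25a, Cdk5, Ccnd1bp1, Ccnh and Cdk7. Of this list 9 genes were tested and 1 was higher, the mitotic cyclin Ccnb1 at 0.88, with a median of 0.04. Of 14 proliferation genes tested 2 were higher, the thymidine kinase Tk1 at 0.91 and the replication helicase subunit Mcm4 at 0.29, and 1 was lower, the thymidylate synthase Tyms at -0.41, with a median of 0.22. Of the remaining CDK inhibitors only 1 was tested, and it was not called. The calls of list genes were not followed when libraries were left out. Over all genes, calls fell from 2122 to 1336, 1245 and 1572 without young library 1, 2 or 3.

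Of 13 genes tested among p53 and its targets, 2 were higher and 1 lower, with a median of 0.01. Phlda3 and Pmaip1, which promote cell death, were at 0.91 and 0.90, and Gadd45a, a stress gene that binds p21, was at 22.4 ± 2.06 CPM in aged against 36.5 ± 0.882 CPM in young retina (log2 fold change -0.71, edgeR, adjusted p = 0.000758). Gadd45a thus moved as Cdkn1a did, and Phlda3 and Pmaip1 the other way. The list of senescence secretory and stress genes had 11 of 19 genes tested. Leaving Mmp3 aside, 2 of the other 10 were higher and 2 lower, with a median of 0.32. Timp1, an inhibitor of metalloproteinases that reactive glia also express, was at 2.46 and Igfbp2 at 0.95, while Lmnb1, the lamin that is lost from senescent cells, was at -0.44 and Igfbp5 at -0.37. Mmp3, which lies under the level set for naming and was picked out after its values were seen, was also called higher. Young libraries had 0 reads of it and aged ones 33, 13 and 37, with 325, 32 and 12 reads in the treated ones. It passed the filter on low counts only through the aged group, so that its call had to follow, and it is left out of the counts above.

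Of 10 genes of D cyclin and p27 turnover, 0 were higher and 2 lower, with a median of -0.05. These were Skp2, the ubiquitin ligase subunit that marks p27 for degradation, at -0.47 and Gsk3b, which phosphorylates cyclin D1 for export and degradation, at -0.25. Of 24 regulators of Cdkn2a and Cdkn2b, 1 was higher and 2 lower, with a median of 0.03. Tgfbr2, a TGF-beta receptor, was at 1.06, Kdm6b, a histone demethylase that opens the Cdkn2a locus, at -0.56, and Smad4 at -0.30. Over all genes tested, edgeR called 0.0205% for 8-AG in retina and 0.0% in both RPE/choroid comparisons, so that almost no call could fall in a list. In the 3 other comparisons none of the 8 lists had a called gene. Their medians were between -0.08 and 0.16 for 8-AG in retina, between -0.08 and 0.22 for age in the RPE/choroid and between -0.58 and 0.02 for 8-AG in the RPE/choroid, where that of the secretory list was lowest and treated library 1 takes part in each value.

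**Figure D5:**
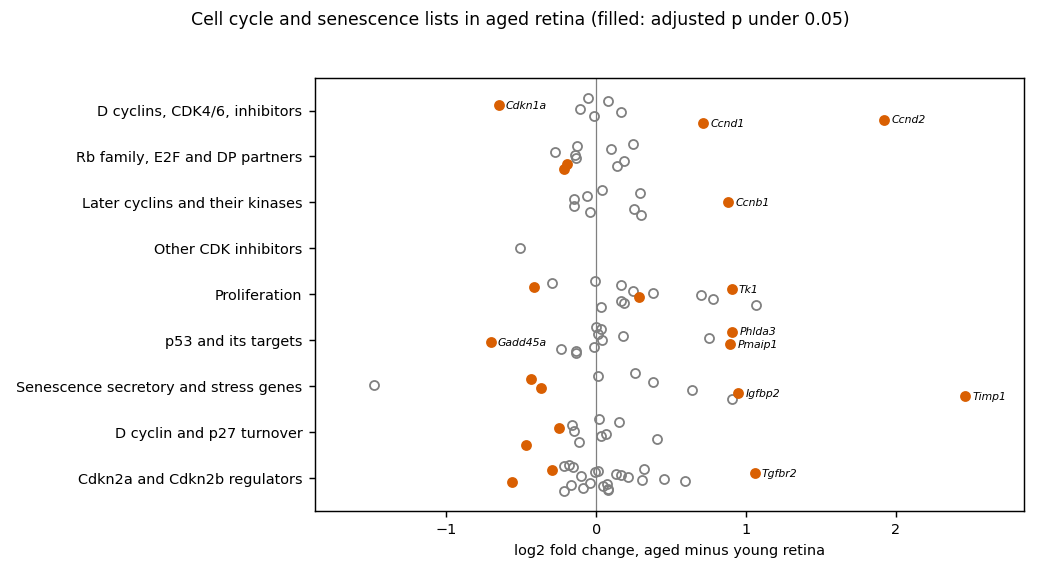
Log2 fold change of aged minus young retina for each gene tested, with 1 row per list, filled symbols for an adjusted p below 0.05 and open symbols for the rest. Mmp3 is left out because its young libraries had 0 reads. Ccnd2 at 1.92 and Timp1 at 2.46 stand farthest to the right, and Cdkn1a and Gadd45a are at -0.65 and -0.71.

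The genes whose log2 CPM followed a called member most closely over the 9 retina libraries were searched among 13125 genes. These libraries share their groups, so that any gene with a like shift between young and aged correlates, and no test was made. For Ccnd2 they were Cd1d1, which presents lipids (Pearson's r = 0.993), Speg (0.992) and Gbp2, an interferon-induced GTPase (0.992). Gbp2 was at a mean of 1.92 CPM in young, 29.0 CPM in aged and 22.4 CPM in 8-AG-treated retina. For Ccnd1 they were Pygl, a glycogen phosphorylase (0.983), the urea transporter Slc14a1 (0.978) and Arhgdia (0.976). For Cdkn1a the closest were LOC100910506 (0.94), AABR07021988.1 (0.927) and Sh3gl3 (0.918).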

How the data were processed

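RNA-seq of 18 libraries was used, 3 per group and tissue. The retina values are expected counts per gene that the authors estimated with RSEM and deposited, and the RPE/choroid values are raw counts of reads by gene, as deposited by the authors. The submitters' processing notes name Bowtie2 2.1.0, RSEM 1.2.15, edgeR and the build Rnor_6.0, with no role or order. Expected counts were rounded. Symbols were read from tables in which the authors had normalized the counts to a TMM or size-factor signal, and that signal served only to pair names with identifiers, by matching values. Where both routes named an identifier the names were equal for 91.3%, and for 1295 identifiers matching was the only route. Fold changes and p-values of the authors' own comparisons were not used.

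The 6 libraries of a comparison entered one edgeR 4.0.16 model under R 4.3.3 (glmQLFit, robust, and glmQLFTest after filterByExpr and TMM scaling), with Benjamini-Hochberg adjustment over all genes tested. The SE is the absolute log2 fold change over the square root of F. The scripts were tested on simulated data. Totals were 12283458 to 15644346 counts in retina and 28573828 to 48203050 in RPE/choroid. Floors cover counting error only.

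The members and gene lists were chosen with earlier results of these data known. All members are named. Of each list, the called genes with a mean log2 CPM of at least 1 are named, up to the 4 of largest change, and of each called member the 3 genes with the highest correlation. Alternatives were DESeq2 1.42.0, other scaling and filters, unrounded values, one fit of all groups, a replicate block, summing of libraries with a shared label number, and leaving out each library. Leaving out young retina libraries 1 and 2 together and the rod covariate were chosen after seeing the data. Sequences are from RefSeq (GRCr8), which is not the build of the files.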

Additional observations from a re-analysis of the deposited data

How the results depend on the processing

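In aged against young retina, 3 members were called and 1 to 3 when each library was left out, with 1 without each young library and 1 without young libraries 1 and 2 together. Without that pair, Ccnd1 was 0.92 (edgeR, adjusted p = 0.166) and Cdkn1a -0.61 (0.25), while Ccnd3 at 0.09, Cdk6 at 0.14 and Cdkn1b at -0.03 changed sign. Ccnd1 was 0.72 with no filter (0.065) and in one fit of all groups (0.291). The count by the study's rule in aged RPE/choroid was 2, and it was 1 with at least 10 counts in every library, 1 with libraries sharing a label number summed, 0 in one fit of all groups and 0 to 3 when each library was left out. The count for 8-AG was 0 to 1 in retina when each library was left out, and 1 in RPE/choroid with the rod covariate, under which Ccnd2 was -0.12. The causes were not tested.

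Values that changed sign when a library was left out ranged, in aged against young retina, from -0.06 to 0.06 for Ccnd3, -0.29 to 0.04 for Cdk6 and -0.25 to 0.13 for Cdkn2c. In aged against young RPE/choroid they ranged from -0.40 to 0.06 for Ccnd1, -0.12 to 0.27 for Ccnd3, -0.29 to 0.11 for Cdk4, -0.09 to 0.39 for Cdkn1b and -0.10 to 0.33 for Cdkn2c. For 8-AG in retina they ranged from -0.29 to 0.50 for Ccnd1, 0.0 to 0.07 for Ccnd3, -0.13 to 0.02 for Cdk4 and -0.04 to 0.29 for Cdk6. For 8-AG in RPE/choroid they ranged from -0.60 to 0.36 for Ccnd1, -0.16 to 0.46 for Ccnd2, -0.41 to 0.18 for Ccnd3, -0.46 to 0.16 for Cdk4, -0.25 to 0.59 for Cdkn1a, -0.39 to 2.32 for Cdkn2b and -0.35 to 0.26 for Cdkn2c.

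Libraries with the same replicate number did not deviate together in all 3 pairs of any comparison (correlations from -0.58 to 0.65), so the numbers were not taken as pairs. With the number as a replicate block, 3 members were called in aged against young retina, the count by the study's rule in aged RPE/choroid was 1, and Ccnd2 for 8-AG in RPE/choroid was -0.02. The block changed no other call. Depth limits Cdkn2a and Cdkn2b most, with at most 3 and 19 reads per library in retina.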
